A study of Homo sapiens with 2 samples.

Results

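Cornified envelope and squamous genes encode the proteins that a stratified squamous cell crosslinks beneath its plasma membrane. The 10 genes described here, IVL, SPRR1A, SPRR1B, SPRR3, TGM1, TGM2, PPL, EVPL, CSTA and SCEL, were taken as a list, by their symbols in the array's platform annotation, from 19775 genes that the annotation names singly. All 10 were on the array, with 18 probe sets in all. They were measured in Calu-3, a human lung adenocarcinoma line that serves as a stand-in for the lining and glands of the airway. Cells grew on elastic plates coated with collagen, to about 80% confluence, and received 10% serum. The stretched culture was cycled for 18 h between 0.7% and 20% stretch, as a sine wave with 2 s on and 2 s off. Its counterpart carried a label of 18 h without stretch. Each condition was measured on 1 Affymetrix array (n = 1 per group), so no value below has a replicate error or a test, and every difference compares these 2 arrays of 1 cell line.

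The cornified envelope is built in layers. Involucrin, envoplakin and periplakin form an early scaffold, transglutaminases join proteins through glutamine and lysine side chains, and small proline-rich proteins act as short cross-bridges between the larger precursors. Airway epithelium normally makes little of this structure, but it can turn squamous after injury or vitamin A deficiency, and IVL, TGM1 and the SPRR genes are then used as markers. Periplakin, envoplakin and tissue transglutaminase also have roles in simple epithelia, where they do not by themselves mark squamous differentiation.

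A signal at or below the median of its array (28.7 without stretch and 28.4 with it) was marked as dim and set to that median before log2 differences were taken, since the table used here holds no detection calls. A gene counted as measured when its representative probe set, the one highest in mean log2 signal, was above the median in at least 1 array, and a difference against a dim signal is a bound, written "at least". Of 13453 measured genes, 1046 (7.78%) were higher by 2-fold or more with stretch and 1008 (7.49%) were lower by as much, and the median log2 difference was 0.01. Hybridisation spike-ins differed by a median of -0.11 (log2). The 3′ to 5′ signal ratios of GAPDH and ACTB, a measure of RNA integrity, were 0.878 and 1.04 without stretch and 0.862 and 1.01 with it. All 9 epithelial markers were above the median in both arrays, and their summed signal was 61982 without stretch and 57273 with it, with MUC1, ELF3 and CFTR at least 2-fold lower with stretch. Among basal cell markers, KRT5 and NGFR were dim in both arrays, and KRT14 was 2.92-fold lower with stretch (1.32-fold with the floor at the 75th percentile of each array). The basal markers KRT17 and TP63 had no probe set named for them alone and were not read. Of the markers of other cells, 3 of 7 fibroblast, 3 of 4 leukocyte and 1 of 5 endothelial genes named on the array were measured, and none of them passed 2-fold in the representative probe set, although the other measured probe sets of the fibroblast marker COL1A1 were at -2.52 and -2.40 on the log2 scale. The leukocyte marker LYZ read 1220 without stretch and 1462 with it, CD14 read 78.6 and 55.1, and CD3E read 25.8 and 30.3. The endothelial marker PECAM1 read 57.7 and 51.3. The leukocyte marker PTPRC and the endothelial markers CDH5, VWF, KDR and TEK were dim in both arrays.

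Of the 10 genes, SPRR3 and IVL were at least 2-fold higher in the stretched array, no gene was 2-fold lower, 6 differed by less than 2-fold, SPRR1B had a bound below 2-fold, and CSTA was dim in both arrays. Among the 18 probe sets, 9 were above the median in both arrays, 4 in the stretched array only, none in the non-stretched array only, and 5 in neither. The 2 genes called higher, out of 9 measured, stand beside the 7.78% of all measured genes. By probe set, 4 of the 13 measured passed 2-fold upward and none downward, beside 8.66% and 6.48% of the measured probe sets of all named genes. At a limit of 1.5-fold, 4 genes were higher (17.9% of all measured genes) and PPL was lower (16.7%), and at 3-fold SPRR3 alone was higher (2.87%) and none was lower (2.81%). SPRR3 and IVL were measured through the stretched array only, as was SPRR1B. A gene that is measured in this way can differ in 1 direction only, so the count and the median log2 difference of the 9 genes (0.42) are descriptions and support nothing further. Taken from the non-stretched array alone, 4 of the 10 genes were dim. Of these, 2, again SPRR3 and IVL, were at least 2-fold higher in the stretched array. The same held for 83 of all 6834 genes dim in the non-stretched array (1.21%). The 6834 include genes dim in both arrays, which could not be higher once set to the medians, so that share is low by construction. The 10 genes were chosen with earlier results of these data known, so this comparison is a description too.

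**Figure D1:**
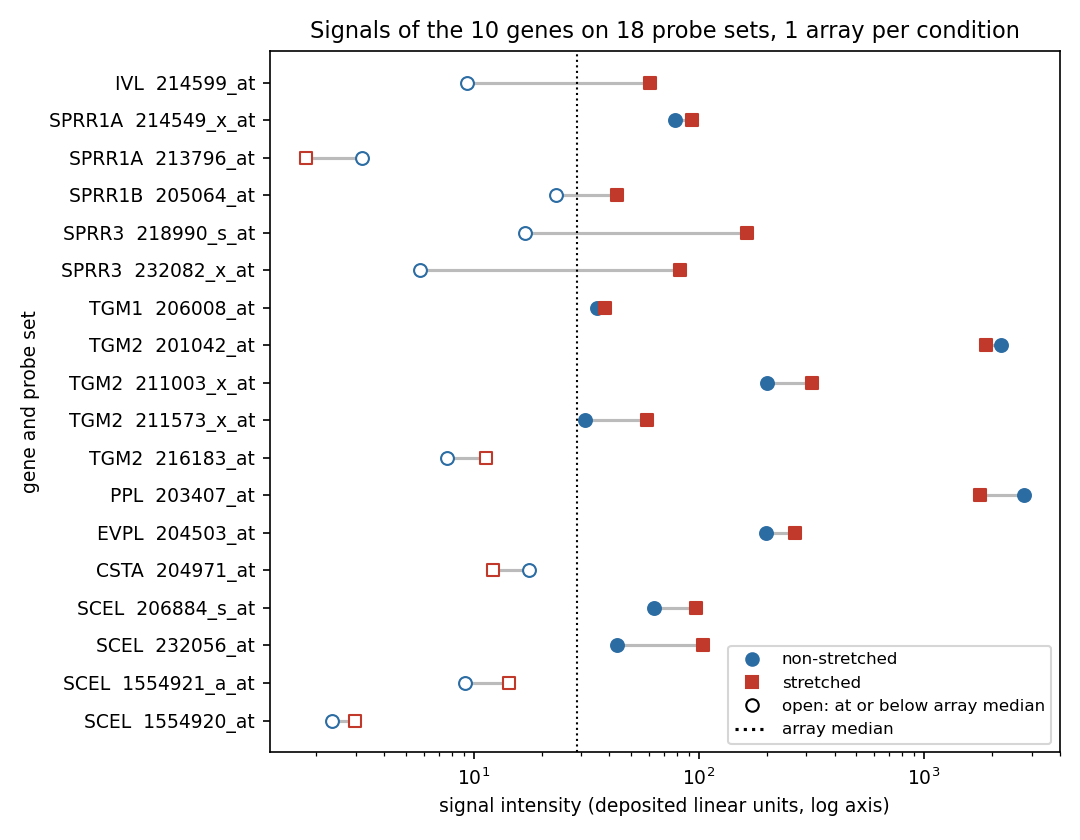
Signal intensity (log axis, deposited linear units) of each of the 18 probe sets in the non-stretched array (circles) and the stretched array (squares), with open symbols for signals at or below the array's median and a dotted line at 28.7, the non-stretched median. Both SPRR3 probe sets and the probe sets of IVL and SPRR1B cross the median from below. The brightest TGM2 probe set and PPL lie far above it in both arrays and are lower in the stretched array.

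Involucrin, encoded by IVL, is the glutamine-rich scaffold protein laid down first under the membrane. Its only probe set read 9.35 without stretch and 60.4 with it. IVL was therefore dim in the non-stretched array only, and the difference was at least 2.11-fold, just inside the 2-fold limit. Among members above the median in both arrays, SCEL lay nearest below that limit, at 1.54-fold higher by its representative probe set. Its dimmer measured probe set was 2.39-fold higher. SPRR1B, a bound, cannot be placed against the limit. With the arrays centred on their 75th percentile IVL was at 0.97 on the log2 scale, under 2-fold.

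SPRR3, a small proline-rich protein typical of non-keratinised squamous linings such as the oesophagus, had the higher bound of the 2 genes that passed 2-fold. Its probe set with the higher mean signal read 16.9 without stretch and 163 with it, at least 5.70-fold higher. Its second probe set read 5.75 and 82.4, at least 2.87-fold higher. Both were dim without stretch and clear of the median with it. Of all measured genes, 0.550% were at least as high as this bound. Among the 6834 genes dim in the non-stretched array, 11 (0.161%), SPRR3 included, were higher by as much or more. That second share is low by construction, since genes dim in both arrays are in the 6834 and could not be higher. The names of the SPRR3 probe sets end in _s_at and _x_at, endings the manufacturer gives to probe sets that can bind other transcripts, so signal from a related gene cannot be told apart from SPRR3 here.

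The neighbouring SPRR1 genes, which encode the cornifins first described in squamous airway cells, did not pass 2-fold. SPRR1A read 78.4 without stretch and 92.9 with it on a probe set ending in _x_at, 1.19-fold higher, while its other probe set was dim in both (3.19 and 1.79). The log2 difference of 0.25 was smaller than 0.41, the SD of a probe set of similar signal. That SD comes from genes with more than 1 probe set and covers probe noise and isoform differences, not variation between cultures. SPRR1B read 23.2 and 43.1, at least 1.5-fold higher, from a dim to a barely measured signal, so a difference of 2-fold or more cannot be told apart from a smaller one.

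The promoters of these 4 genes are shown because the genes lie close together in the same gene cluster and differ in how far their signals moved between the arrays. Each runs from 250 bases before to 50 after the RefSeq gene start (GRCh38.p14, plus strand), 5′ to 3′, with matches to the AP-1 word TGAGTCA in capitals. The positions are chr1:152908296-152908595 for IVL, chr1:153001499-153001798 for SPRR3, chr1:152983831-152984130 for SPRR1A and chr1:153030953-153031252 for SPRR1B.
IVL: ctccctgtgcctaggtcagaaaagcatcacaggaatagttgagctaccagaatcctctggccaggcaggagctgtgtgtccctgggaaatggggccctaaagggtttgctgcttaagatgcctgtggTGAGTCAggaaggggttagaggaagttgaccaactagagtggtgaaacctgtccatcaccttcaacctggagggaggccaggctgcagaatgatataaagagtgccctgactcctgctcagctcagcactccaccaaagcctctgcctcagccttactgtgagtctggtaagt
SPRR3: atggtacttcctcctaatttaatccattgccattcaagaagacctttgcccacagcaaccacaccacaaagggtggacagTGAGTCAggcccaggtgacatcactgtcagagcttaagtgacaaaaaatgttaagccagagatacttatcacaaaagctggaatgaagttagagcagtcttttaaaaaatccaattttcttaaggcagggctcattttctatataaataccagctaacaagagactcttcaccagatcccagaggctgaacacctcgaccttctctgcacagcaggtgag
SPRR1A: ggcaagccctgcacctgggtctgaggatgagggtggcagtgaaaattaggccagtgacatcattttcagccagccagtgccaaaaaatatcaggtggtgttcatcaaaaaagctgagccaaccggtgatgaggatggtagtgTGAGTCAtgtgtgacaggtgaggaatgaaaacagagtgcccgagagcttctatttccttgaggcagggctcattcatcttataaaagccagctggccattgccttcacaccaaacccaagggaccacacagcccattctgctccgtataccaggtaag
SPRR1B: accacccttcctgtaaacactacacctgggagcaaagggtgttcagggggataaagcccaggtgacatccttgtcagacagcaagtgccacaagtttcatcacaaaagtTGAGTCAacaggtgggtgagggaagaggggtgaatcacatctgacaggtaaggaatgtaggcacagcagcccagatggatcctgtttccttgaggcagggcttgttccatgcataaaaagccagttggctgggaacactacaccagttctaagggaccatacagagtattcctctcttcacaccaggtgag
AP-1 is a dimer of FOS and JUN family proteins, and AP-1 sites are known regulatory elements of IVL and SPRR genes in keratinocytes. The word TGAGTCA, searched on both strands (TGACTCA on the other), was present in the promoters of IVL, SPRR3, SPRR1A and SPRR1B and, on the opposite strand, SCEL, which are the 5 of the 10 genes with an entry in the RefSeq promoter table. It occurred in 4.95% of all 35116 promoters of the same length. It began 123 bases before the start in IVL, 170 in SPRR3, 108 in SPRR1A, 141 in SPRR1B and 49 in SCEL. Promoters of genes with at least 2-fold and with smaller differences thus held the same word, and a match describes the letters and not a bound site.

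A TATA word (TATAAA, both strands) lay 30 bases before the start in IVL and 29 bases before it in SPRR3 and SPRR1A, and was found in 11.5% of all promoters. It was not in the SPRR1B or SCEL window. The word TGACATC, chosen after the SPRR sequences were seen, began 155 bases before the start in SPRR3, 196 in SPRR1A and 188 in SPRR1B, against 4.22% of all promoters. None of these matches overlapped another. SPRR1A and SPRR1B shared an uninterrupted run of 18 bases (tttccttgaggcagggct) close to the start, and SPRR3 shared runs of 14 bases with each of them, while the longest run that SCEL shared with IVL was 9 bases and with any SPRR promoter 8 bases.

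**Figure D2:**
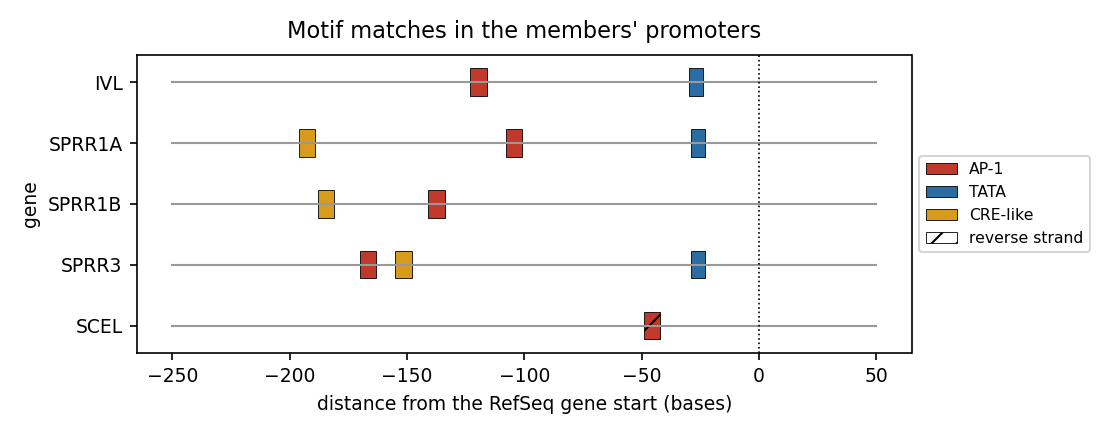
Positions of the 3 words in the promoters of the 5 genes, in bases from the RefSeq gene start (dotted line at 0), coloured by word, with hatching for a match on the reverse strand. All 5 promoters hold the AP-1 word, between 170 (SPRR3) and 49 (SCEL) bases before the start, while the TGACATC word is seen in the 3 SPRR promoters.

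The transglutaminases differed little. TGM1, the membrane-anchored enzyme of keratinocytes that crosslinks involucrin and the SPRR proteins, read 35.3 without stretch and 38.4 with it, barely above the median in both, and was 1.09-fold higher. Its log2 difference of 0.12 was below the probe-set SD of 0.51 at this signal. TGM2, the widely expressed tissue transglutaminase, was measured on 3 of its 4 probe sets, and they did not point the same way. The brightest read 2205 and 1878, 1.17-fold lower in the stretched array. The others, both ending in _x_at, read 200.4 and 318 (1.59-fold higher) and 31.0 and 59.0 (1.90-fold higher), and the fourth was dim in both arrays (7.64 and 11.4). The measured probe sets ranged from -0.23 to 0.93 on the log2 scale, so these arrays give no single direction for TGM2.

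The plakins, which tie keratin filaments to desmosomes and to the envelope, lay on opposite sides of zero. PPL, periplakin, read 2772 without stretch and 1779 with it, 1.56-fold lower, and had 1 probe set. Its log2 difference of -0.64 was 3.61 times the probe-set SD of 0.18 at this signal, although 14.8% of all measured genes were as low or lower. EVPL, envoplakin, its partner in heterodimers, read 199 and 266, 1.34-fold higher, with a log2 difference of 0.42 that was close to the probe-set SD of 0.41.

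SCEL, sciellin, a LIM-domain precursor of the envelope, was measured on 2 of its 4 probe sets. They read 62.9 and 96.9 (1.54-fold higher) and 43.4 and 104 (2.39-fold higher) without and with stretch, so both were higher with stretch but only the dimmer reached 2-fold. Its remaining probe sets were dim in both arrays. CSTA, the cysteine protease inhibitor cystatin A, read 17.6 and 12.1 and was dim in both arrays, so no fold is given.

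**Figure D3:**
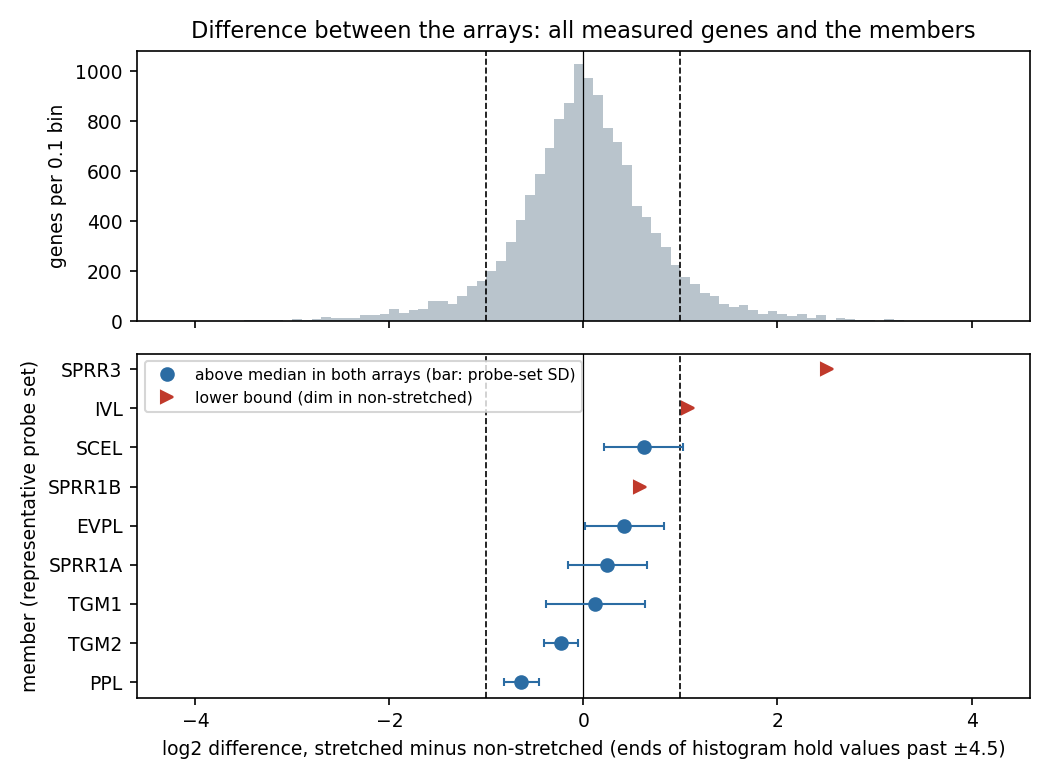
Top, histogram of log2 differences (stretched minus non-stretched) of the 13453 measured genes; bottom, the 9 measured members by their representative probe set, with triangles for lower bounds, bars of 1 probe-set SD at the gene's signal, and dashed lines at 2-fold. SPRR3 (at least 2.51) lies far to the right, IVL (at least 1.07) at the limit, and PPL (-0.64) is the lowest.

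IVL and the SPRR genes lie in the epidermal differentiation complex, a cluster on chromosome 1 that also holds the late cornified envelope, filaggrin-type and many S100 genes. Between S100A10 and S100A1, RefSeq (GRCh38.p14) lists 63 protein-coding genes, and 40 of them had a probe set named for them alone. Of these, 16 (40.0%) were measured, against 68.0% of all named genes. The measured genes were 10 of 16 S100 genes, 4 of 6 small proline-rich genes, 0 of 4 late cornified envelope genes and 2 of 14 others, IVL and KPLCE. Named after their values were seen, LORICRIN, the main protein of the mature epidermal envelope, read 1.0 and 3.04, and FLG, the filaggrin precursor, 1.79 and 1.85 without and with stretch, dim in both.

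In gene order SPRR3 sits between SPRR1A and SPRR1B, at log2 differences of at least 2.51 against 0.25 and at least 0.59, and SPRR4, before SPRR1A and named after its value was seen, was at 0.16. The direct neighbours SPRR3 and SPRR1A thus had differences of unlike size, on probe sets that can bind other transcripts. SPRR3 and SPRR1B are both bounds, so their sizes cannot be ranked. Outside the listed genes, S100A4 was 2.20-fold higher, and no measured gene of the cluster was 2-fold lower. Of the 16 measured genes, 3 were at least 2-fold higher and 0 lower, beside 7.78% and 7.49% of all measured genes. IVL, SPRR3, SPRR1B and S100A3 were measured through the stretched array only and could not be called lower. The median log2 difference over the 16 measured genes was 0.42, as it was over the 10 measured S100 genes. These counts and medians are descriptions.

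**Figure D4:**
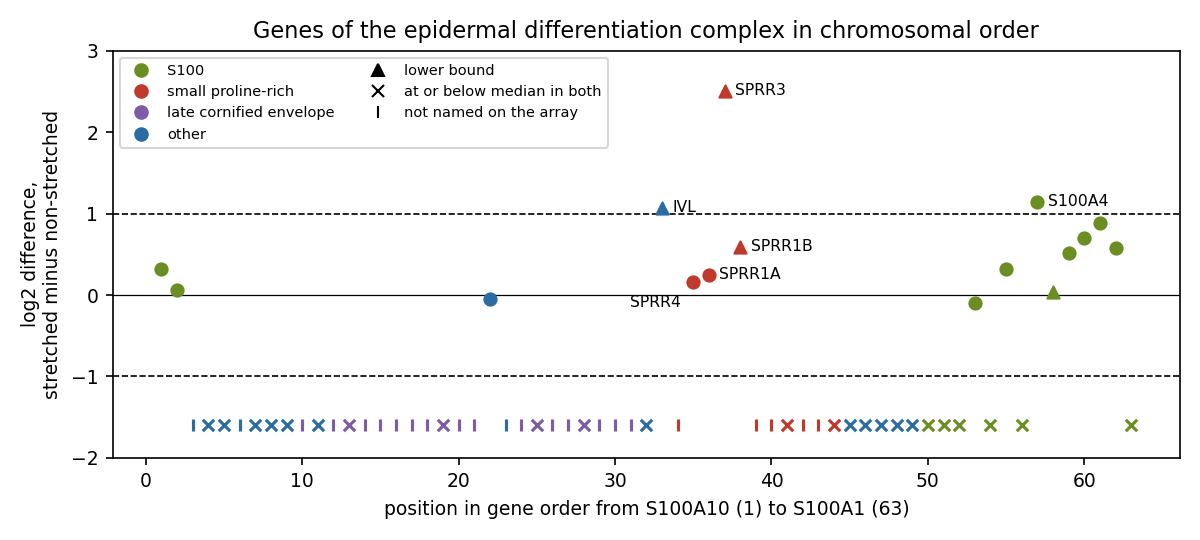
Log2 difference (stretched minus non-stretched) of genes of the epidermal differentiation complex in chromosomal order, coloured by family, with triangles for lower bounds. Crosses mark genes dim in both arrays and bars genes with no singly named probe set, both drawn below the axis range of the values. SPRR3 is drawn above its neighbours SPRR1A and SPRR1B, although SPRR3 and SPRR1B are both bounds, and the singly named late cornified envelope genes are all dim.

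Genes of the same programme outside the 10 were read from 8 lists with 136 genes. Of these, 110 had a probe set named for them alone, and 71 were measured. The other 26, TP63 among them, had no such probe set here and were not read. The 2-fold limit was passed upward by 6 (8.45%) and downward by 4 (5.63%), beside 7.78% and 7.49% of all measured genes, and the median log2 difference was -0.01. Both shares lay near those of the array.

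The structural lists held few measured genes or few differences. Of the other small proline-rich genes 1 of 3 named singly was measured, of the late envelope and fused S100-type genes 1 of 11. Of the other transglutaminases it was 1 of 6. None of these 3 passed 2-fold, 1 of them, CNFN, named after its value was seen, on a bound of at least 1.07-fold lower. Of the desmosome and other plakin genes 12 of 18 were measured, none differed 2-fold in its brightest probe set, and the median was -0.11. Over all measured genes 7.78% were higher and 7.49% lower by 2-fold or more. Named after their values were seen, desmoplakin (DSP) read 1637 and 1699, a log2 difference of 0.05, and plakophilin 3 (PKP3), at 0.85 and 1.14 in its 2 probe sets, was the highest of the list by brightest probe set, although a dimmer probe set of PERP was at 1.35 and one of DST at 1.20. Of the desmosomal cadherins typical of stratified epithelia, also named after their values were seen, DSG1, DSG3 and DSC1 were dim in both arrays, while DSC3 read 308 and 241, a log2 difference of -0.35.

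In the surface and linker list 3 of 11 measured genes were higher (27.3%) and 1 lower (9.09%), beside 7.78% and 7.49% of all measured genes. EMP1, a tetraspan membrane protein induced when tracheal cells turn squamous, read 875 without stretch and 3644 with it, 4.17-fold higher. Its 4 other measured probe sets ranged from -0.55 to 2.81 on the log2 scale, the highest a bound. EMP3, of the same family, read 156 and 795 (5.10-fold higher), and LYPD3, a GPI-anchored protein of suprabasal keratinocytes, read 142 and 401 (2.83-fold higher, but 1.73-fold with the floor at the 75th percentile), each on 1 probe set. SPINT1, an inhibitor of membrane serine proteases, was 2.05-fold lower (604 and 295), and its dimmer probe set differed by -0.998. It was under 2-fold with 32 added to each signal (1.94-fold) and with the spike-in scaling (1.89-fold).

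Among protease inhibitors, SERPINB5 (maspin), a serpin of basal and squamous cells, read 272 and 1065, 3.91-fold higher. It was the only 1 of 7 measured to differ 2-fold (14.3%, beside 7.78% of all measured genes that were higher). Among squamous proteases and barrier lipid enzymes 1 of 12 was higher and 1 lower (8.33% each), beside 7.78% and 7.49% of all measured genes. KLK11, a kallikrein-type protease, read 90.6 and 194 (2.14-fold higher on a probe set ending in _s_at, but 1.85-fold with 32 added to each signal and 1.99-fold after centring on the 75th percentile), and ABCA12, the lipid transporter that loads lamellar granules, read 167 and 52.2 (3.21-fold lower). Other kallikreins, named after their values were seen, lay on both sides of zero, with KLK10 at -0.91, KLK6 at -0.74 and KLK7 at -0.47 on the log2 scale and KLK5 at 0.34 and KLK8 at 0.35.

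Of 26 measured transcription factors and Notch pathway genes of squamous differentiation, 1 was higher (3.85%) and 2 were lower (7.69%), with a median of -0.19. The shares of all measured genes were 7.78% and 7.49%. FOSL1, the FOS family AP-1 subunit FRA1, was 12.9-fold higher (102 and 1321), and 5.72-fold higher with the floor at the 75th percentile. The other AP-1 genes of the list, named after their values were seen, were all below zero and under 2-fold in the brightest probe set: FOS was at -0.78, JUNB at -0.75, JUND at -0.29, JUN at -0.27 and FOSL2 at -0.23. ELF3, an epithelial ETS factor known to act on SPRR promoters, was 3.62-fold lower (2934 and 810), with its other probe sets at -1.65 and -1.59. MAF was at least 4.82-fold lower on a probe set ending in _s_at (137 and 8.38). Of its other measured probe sets, 1 was at -0.46, a bound (39.0 and 13.6) that does not conflict with this. The other, above the median in both arrays, was at -0.27, so the size for MAF depends on the probe set. Other factors that act in epidermal differentiation, named after their values were seen, lay on both sides of zero, with GRHL1 at 0.89, OVOL2 at 0.68 and OVOL1 at 0.64, KLF4 at -0.47 and GRHL3 at -0.57, a bound. ZNF750 and PRDM1, named likewise, were dim in both arrays.

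**Figure D5:**
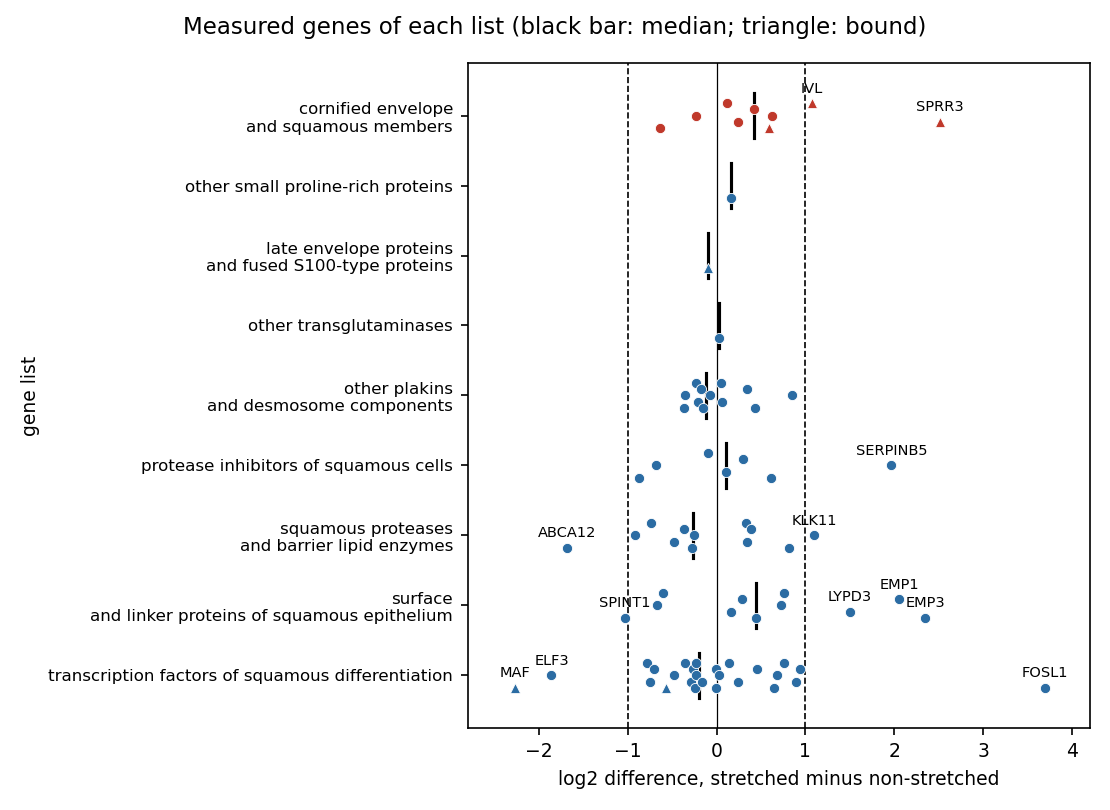
Log2 difference (stretched minus non-stretched) of every measured gene of the 10-gene list (red) and of 8 related lists (blue), by the probe set with the highest mean signal, with black bars at list medians, triangles for bounds, dashed lines at 2-fold and labels on genes past it. Genes past 2-fold lie on both sides, from MAF (-2.27, a bound) to FOSL1 (3.69), and the desmosome list stays within it.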

How the data were processed

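Total RNA (6 µg per culture, Qiagen columns) was turned into biotin-labelled cRNA and hybridised to Affymetrix arrays, per the labels' protocols. The authors deposited 1 linear signal intensity per probe set and array for 54675 probe sets. The sources used here do not give the summarisation method, scaling or software, and the number of arrays (1 per group) limits the precision. The deposited intensities were used unscaled, since the array medians differed by -0.02 on the log2 scale, under a tolerance of 0.1. The 75th percentiles differed by 0.11 and the spike-ins by a median of -0.11, both past that tolerance and in opposite directions. Scalings on each are given below. The platform annotation named the probe sets, with symbols updated by gene ID: 41091 had 1 gene, 1801 several and 11721 none here. Differences are log2 stretched minus log2 non-stretched, after a floor at the 50th percentile of each array. The probe set highest in mean log2 signal stood for a gene. The probe-set SD was 0.36 overall (5818 genes with more than 1 probe set) and 0.51, 0.41, 0.28 and 0.18 in rising ranges of signal divided at 64, 256 and 1024. Promoters came from RefSeq (GRCh38.p14). Genes outside the 10 were named if at least 2-fold different, at most 5 per list and direction; members of the related lists outside this rule are marked where named. The members and lists were chosen with earlier results of these data known. Python 3.11.15 with pandas 2.3.3 and statsmodels 0.14.6 (loess) was used. The log2 differences and the probe-set SD were tested on simulated data with a constant SD. Its changed genes were all above the median in both arrays, so the simulation did not test bounds, and the list and promoter steps were not simulated.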

Additional observations from a re-analysis of the deposited data

How the results depend on the processing

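The members, the medians and counts of the related lists, and the named genes at least 2-fold different were recomputed with a floor at the 75th percentile, no floor, 32 added in place of a floor, arrays centred on the 75th percentile, quantile normalisation, the loess trend removed, an average over measured probe sets, and only those without the _x_at and _s_at endings; a scaling on the spike-ins was added after the data were seen. None of the 16 genes called at 2-fold changed sign where measured. Most alternatives, such as a floor, an added constant or a small rescaling, cannot reverse a 2-fold difference, so that outcome was largely fixed. Of the 16 genes, 6 were under 2-fold in at least 1 alternative that measured them: IVL, KLK11, LYPD3, SPINT1, KRT14 and MAF. SPRR3 and KLK11 were measured in 7 of 9 alternatives and IVL, ABCA12, MAF, MUC1 and S100A4 in 8, and an alternative without a measurement was not counted. The count of 2 members at least 2-fold higher was 0 under the higher floor, where 3 members were measured, and 1 after centring on the 75th percentile. Without the _x_at and _s_at probe sets it stayed at 2, but these were IVL and SCEL (1.26), and SPRR3 was not measured. The count was 4 at 1.5-fold, beside 17.9% of all genes, and 1 at 3-fold, beside 2.87%. At 1.5-fold 1 member was lower, beside 16.7%. The members' median of 0.42 became -0.23 under the higher floor. Related genes at least 2-fold higher numbered 4 there in place of 6, and those at least 2-fold lower numbered 2 in place of 4. With no floor IVL was at 2.69 and SPRR3 at 3.28, and over the other alternatives that measured them IVL was never under 0.97 nor SPRR3 under 2.00. SPRR3 and SPRR1A had no measured probe set free of these endings. Of the differences of single genes and the medians of lists, 246 values moved by less than the probe-set SD of 0.36 and 15 by more, with MAF ranging from -4.03 to -0.27. The average over its measured probe sets put TGM2 at 0.46. Centring on the 75th percentile moved the median of all genes to -0.10 and the spike-in scaling moved it to 0.12, and members moved with it. No paired analysis was possible because each group has 1 array.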

Other observations

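The AP-1 word TGAGTCA, present in all 5 promoters on hand for the listed genes, was also counted over the array. Of measured genes with a promoter entry, it was in 31 of 834 at least 2-fold higher (3.72%), in 462 of 9288 that differed less (4.97%) and in 46 of 794 at least 2-fold lower (5.79%). Genes with the word had a median log2 difference of 0.00 and genes without it 0.01. Over the related lists together the word was in 18 of 112 promoters (16.1%). The highest share was in the surface and linker list, 7 of 12 (58.3%), with EMP1 (higher) and SPINT1 (lower) among them. Other small proline-rich genes had it in 2 of 5 (40%) and desmosome and other plakin genes in 3 of 13 (23.1%). It was in 1 of 27 of the late envelope and fused S100-type list (3.70%) and 0 of 5 other transglutaminases. These counts were made after the members' promoters were seen and carry no test.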
